A study of Homo sapiens with 52 samples.

Results

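SOX genes encode transcription factors that bind DNA through an HMG box, and 7 of them, SOX4, SOX8, SOX9, SOX10, SOX11, SOX12 and SOX13, were followed by gene name through all 52 gene tables, which list 27043 genes. Expression was measured by RNA-seq in fusion-positive rhabdomyosarcoma (FP-RMS) cell lines, established from a muscle-lineage tumour that carries the PAX3-FOXO1 fusion. The screen held 44 samples taken after 6 h: 20 compounds at a high and a low dose with 1 sample each, and 4 DMSO solvent controls, 2 at 0.2% for the high doses and 2 at 0.1% for the low doses. High doses were 10 µM and low doses 1 µM, except for LAQ824, Cpd50 and GSKJ4, which were used at 5 and 0.5 µM. The other 8 samples were N1302 at 1 µM with DMSO at 6 h, and entinostat at 1 µM with DMSO at 1, 6 and 24 h, 1 sample each. Screen samples are titled RH41 while their cell-line label reads RH4, which leaves their line unsettled, and the screen was not tested against the other samples.

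By the target in the labels, 7 compounds acted on the acetylation axis: LAQ824 (HDACs), MC1568 (HDAC4/5), Merck60 (HDAC1/2), OJI1 (HDAC8), WT161 (HDAC6), Bromosporin (bromodomains) and SGCCBP30 (the CREBBP/EP300 bromodomain). HDACs remove acetyl groups from histones, and bromodomains read those groups. Another 11 acted on the methylation axis: UNC0638 (KMT1C), EZ-005 (EZH2), UNC1999 (EZH1), SGC0946 (DOT1L), PFI2 (SETD7), UNC1215 (L3MBTL3), GSKLSD1, LSD519 and LSD690 (LSD1), GSKJ4 (JMJD3/UTX) and Cpd50 (Jumonji demethylases). PFI3 (SMARCA4) and trametinib (MEK1/2) were counted in neither axis. The paper lists BRG, another name of SMARCA4, among remodelers that read acetylation, so PFI3 could also be placed on the acetylation axis. N1302 and entinostat inhibit HDACs.

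The family is divided into groups by sequence of the HMG box. SOX8, SOX9 and SOX10 form the SoxE group, known from cartilage, neural crest and glia, and SOX8 is also expressed in muscle precursors. SOX4, SOX11 and SOX12 form the SoxC group, which acts in progenitors and developing neurons, and SOX13 belongs to the SoxD group. In FP-RMS, the paper counts SOX8 among the core regulatory transcription factors together with MYOD1, MYOG, MYCN and the PAX3-FOXO1 fusion. The list used here holds MYOD1, MYOG, MYCN, FOXF1 and PAX3 beside SOX8. Values are per gene, so reads of the fusion and of PAX3 itself were not separated.

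On hg19 the tables place SOX4 at chromosome 6, 21593972 to 21598849, SOX8 at chromosome 16, 1031808 to 1036979, SOX9 at chromosome 17, 70117161 to 70122560, SOX11 at chromosome 2, 5832799 to 5841517, SOX12 at chromosome 20, 306215 to 310872, SOX13 at chromosome 1, 204042246 to 204096871, and SOX10 at chromosome 22, 38368319 to 38380539. In the GENCODE annotation of GRCh37, the same build, the longest coding transcripts of SOX4, SOX11 and SOX12 have 1 exon each. Those of SOX8 and SOX9 have 3 exons, that of SOX10 has 5 and that of SOX13 has 14. SOX8 overlaps no other annotated gene. Genes on the opposite strand overlap SOX4, SOX9, SOX10, SOX12 and SOX13, among them SOX9-AS1, NRSN2-AS1 over SOX12 and the protein-coding POLR2F over SOX10. A long noncoding gene on the same strand overlaps SOX11. Whether the counting used strand is not given in the sources used here, so reads of overlapping partners cannot be told apart.

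The RefSeq promoter table (GRCh38.p14) held entries for 3 of the 7 genes, SOX4, SOX12 and SOX13. The 250 bases before the annotated start are shown for each gene with an entry. A link between these sequences and the changes under the compounds was not tested. Each stretch occurs once on its GRCh37 chromosome, on the plus strand: SOX4 at chr6:21593732-21593981, SOX12 at chr20:305946-306195 and SOX13 at chr1:204041993-204042242. Capitals mark E-boxes, the letters CANNTG, which read the same on both strands and are bound by basic helix-loop-helix factors such as MYOD1 and MYOG.
SOX4: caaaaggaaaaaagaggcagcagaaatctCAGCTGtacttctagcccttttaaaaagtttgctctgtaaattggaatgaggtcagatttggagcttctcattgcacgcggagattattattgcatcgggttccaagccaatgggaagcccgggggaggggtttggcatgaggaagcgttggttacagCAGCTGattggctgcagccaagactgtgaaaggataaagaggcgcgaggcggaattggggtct
SOX12: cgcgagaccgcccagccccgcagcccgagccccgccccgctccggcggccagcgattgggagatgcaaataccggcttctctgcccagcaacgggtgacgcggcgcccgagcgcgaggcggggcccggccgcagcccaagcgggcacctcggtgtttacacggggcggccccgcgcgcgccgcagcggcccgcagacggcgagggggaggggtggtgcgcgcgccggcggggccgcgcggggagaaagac
SOX13: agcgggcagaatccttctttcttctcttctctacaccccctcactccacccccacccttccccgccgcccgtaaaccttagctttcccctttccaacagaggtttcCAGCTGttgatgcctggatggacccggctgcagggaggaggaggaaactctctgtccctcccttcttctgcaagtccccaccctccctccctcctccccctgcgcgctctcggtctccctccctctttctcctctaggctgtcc
The SOX4 stretch holds 2 E-boxes, beginning 221 and 63 bases before the start, and the SOX13 stretch holds 1. All 3 have the letters CAGCTG. No E-box is in the SOX12 stretch. Of 35116 promoter stretches of the same length, 61.8% hold CANNTG and 14% hold CAGCTG, so an E-box is common in such windows. GC content was 79.2% for SOX12, 60.8% for SOX13 and 48.8% for SOX4. Entries for SOX8, SOX9, SOX10 and SOX11 are not in the table.

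In DMSO, SOX8 stood far above its family. TPM, a share of all transcripts, is scaled for gene length and can be compared between genes. SOX8 lay at 664 to 707 TPM in the 4 screen controls, rank 174 of the 16359 genes kept by the filter (1 TPM or more in no fewer than 2 samples). SOX12 lay at 69.2 to 79.6, SOX4 at 48.5 to 51.4, SOX11 at 31.6 to 33.5, SOX13 at 27.1 to 29.2 and SOX9 at 7.87 to 9.13 TPM. The ranges of neighbours in this order did not overlap. As means of both DMSO concentrations, the levels were 688 ± 7.89 TPM (SD, n = 2) for SOX8, 73.9 ± 0.650 for SOX12 and 8.61 ± 0.147 for SOX9. This SD is between the means of the concentrations and is not the wider spread of the 4 libraries given above.

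SOX10, the SoxE member known from neural crest and glia, was near 0. It had 0 reads in each screen DMSO library, which allows up to 3 reads, and at most 3 reads and 0.111 TPM in any of the 52 samples. It did not pass the filter on low values and is not tested; the other 6 genes passed it. SOX8 had at least 3015 reads in every sample and SOX9, the lowest of the 6, at least 55.

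Of 12 muscle and rhabdomyosarcoma markers, 11 reached 1 TPM in the screen controls, with MYOD1 at 640 to 648 TPM. Of 12 genes of neural crest and glia, 4 did so, led by ERBB3, and SOX10, S100B and DCT stayed under 1 TPM in all 52 samples. Of 4 immune markers only CD14 did, at 1.09 to 1.94 TPM, and PTPRC was at 0 in the controls. The summed level of 5 fibroblast genes was 100.2 to 114 TPM in the controls and 76.5 to 459 TPM in treated screen samples, and its part in the results was not tested. Fewer cells expressing a gene and less RNA per cell cannot be told apart in bulk samples. Depth, worked out from the steps of the TPM values, ran from 5646972 to 40825328 reads. The 28 samples of flow cell C5JW5ACXX, 14 compounds without a DMSO library, had a median of 10400940 reads. DMSO libraries were on C4JM1ACXX and H144EBGXX. Once concentration and flow cell were allowed for, they differed by no more than counting noise (ratio 0.995 over 10376 genes). The libraries of a concentration may therefore not be separate cultures, and the control range may be narrower than the spread between cultures.

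**Figure D1:**
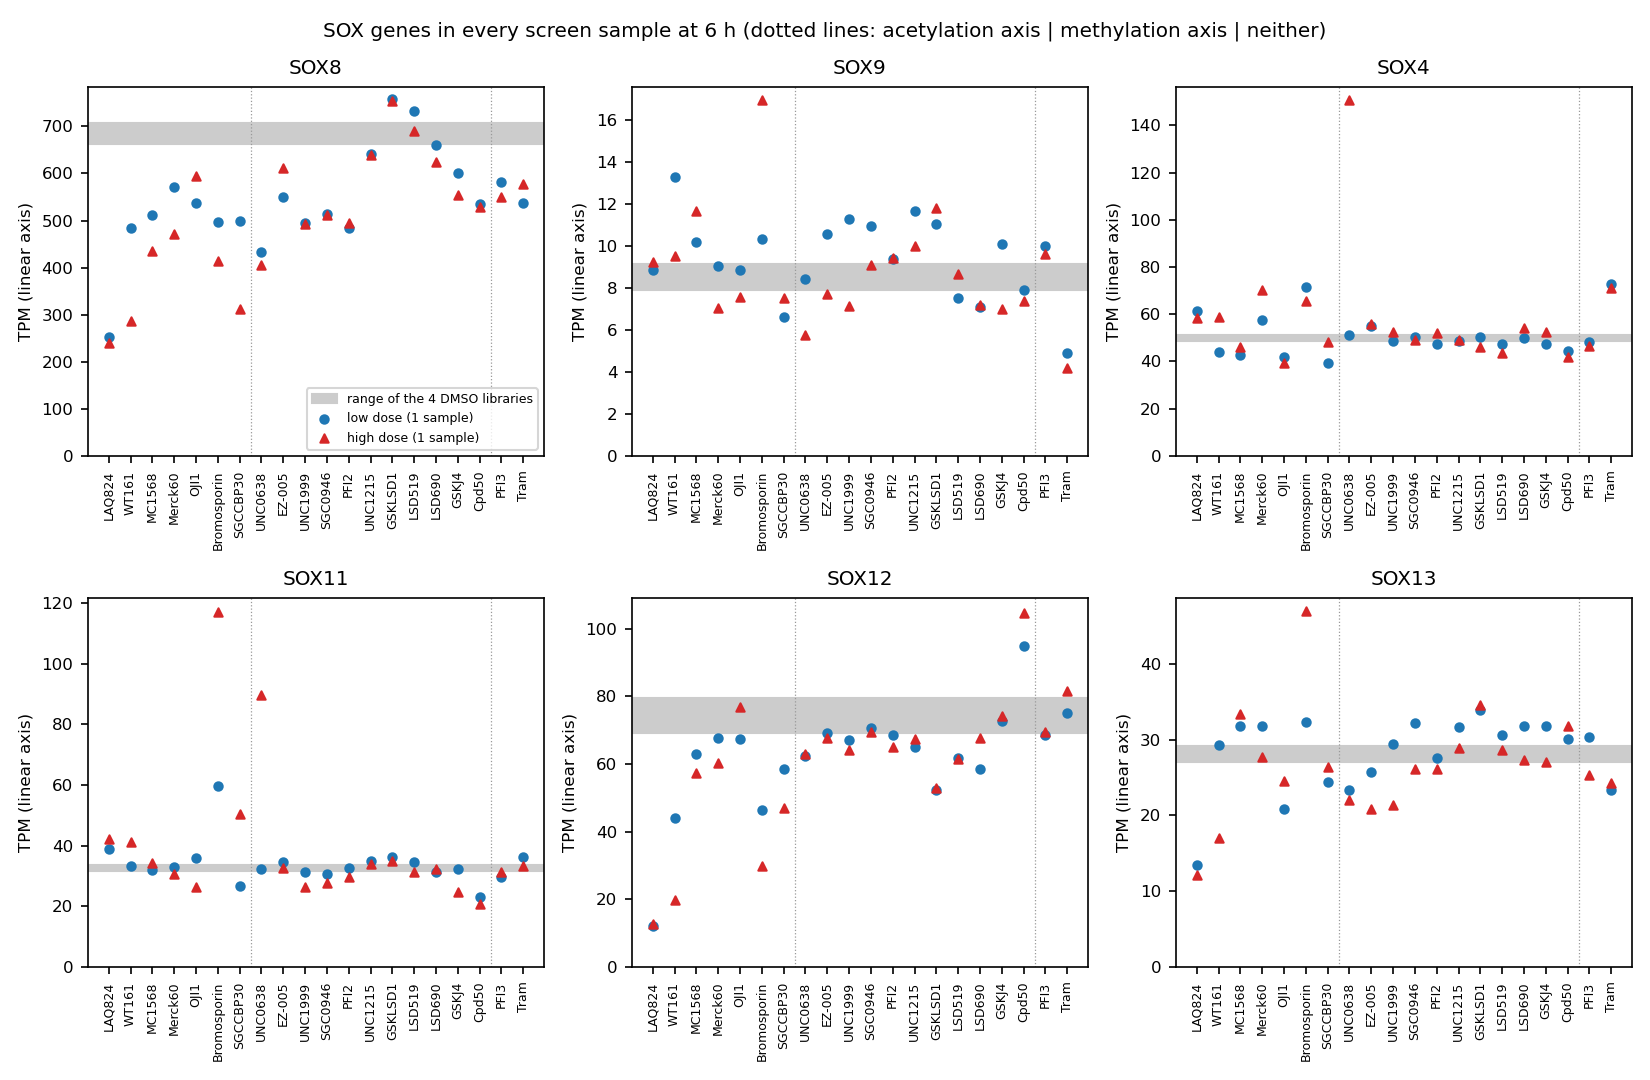
TPM (linear axes from 0) of the 6 tested SOX genes in every treated screen sample, 1 point per sample, with the range of the 4 DMSO libraries in grey. SOX8 reached its lowest values under LAQ824 (239 and 254 TPM), SOX11 its highest under Bromosporin (117 TPM) and SOX4 its highest under UNC0638 (151 TPM).

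Against DMSO, called changes in the family went both ways. Over 20 compounds and 6 genes, 13 changes passed the test (limma on log2(TPM + 1), both doses of a compound as its samples, adjusted p below 0.05 over all genes), 10 of them falls and 3 rises. SOX8 accounted for 6 falls, SOX12 for 3 and SOX13 for 1, while SOX4, SOX9 and SOX11 each had 1 rise. The 6 compounds with a call were LAQ824, WT161, MC1568, Bromosporin, SGCCBP30 and UNC0638. Under them 2.68% (SGCCBP30) to 24.6% (LAQ824) of all genes were called lower. Where a member rose, 2.37% (UNC0638) and 12.4% (Bromosporin) of all genes were called higher. Whether members were called more often than other genes was not tested. Under the other 14 compounds no member was called, and 1.08% of all gene tests there passed.

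SOX8, the core regulatory member, was below its matching DMSO in 36 of 40 treated samples. SOX12 was so in 34, and the other tested members in 16 to 22. The same count was not made over all genes, and 28 of the 40 samples were on C5JW5ACXX, which held no DMSO library. Under LAQ824 SOX8 was at 239 TPM (5 µM) and 254 TPM (0.5 µM), far under the control range at both doses. The log2 fold change was -1.48 ± 0.17 (SE; adjusted p = 2.13e-07), and 24.6% of all genes fell under this compound. Under WT161 SOX8 was at 287 TPM at 10 µM and 485 TPM at 1 µM, a log2 fold change of -0.88 (adjusted p = 0.000382), where 14.3% of all genes fell. Both samples lay below every control and the high dose lay lower. Under SGCCBP30 it was at 313 and 499 TPM (-0.80, adjusted p = 0.00901), where 2.68% of genes fell, and under Bromosporin at 414 and 496 TPM (-0.60, adjusted p = 0.00788), where 23.4% fell. Under MC1568 it was at 435 and 511 TPM (-0.54, adjusted p = 0.0226), where 2.92% of genes fell. UNC0638 was the one methylation-axis compound with a call: SOX8 was at 406 and 433 TPM (-0.71, adjusted p = 0.0118), where 9.76% of genes fell. Each of these samples was below all 4 control libraries, whose range may not cover the spread between cultures. Without the high dose, the calls left for SOX8 were LAQ824 and WT161, since the low dose alone gave -0.43 for MC1568, -0.46 for SGCCBP30, -0.47 for Bromosporin and -0.67 for UNC0638, with adjusted p from 0.180 to 0.708.

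No LSD1 compound had a SOX8 call. GSKLSD1 gave the highest values of the screen, 755 and 758 TPM, and LSD519 gave 691 and 732 TPM. LSD690 gave 625 and 660 TPM, both below the lowest control. None of the 3 differences from DMSO passed the test (0.14, 0.05 and -0.10 on the log2 scale, SE 0.17).

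The SOX8 values were also read by flow cell. Treated samples of C5JW5ACXX had a median of 512 TPM and a median change of -0.42 on the log2 scale, and compounds without a call there, such as PFI2 (495 and 484 TPM) and UNC1999 (493 and 495 TPM), also lay under the controls. On H0VWNAGXX the median was 698 TPM. Set against the remaining compounds of C5JW5ACXX in place of DMSO, SOX8 was called lower under WT161 (-0.49, adjusted p = 0.00250) and SGCCBP30 (-0.40, adjusted p = 0.0469). It was no longer called under Bromosporin (-0.19, adjusted p = 0.218) or UNC0638 (-0.31, adjusted p = 0.0634), and LSD519 was called higher (0.51, adjusted p = 0.0233). LAQ824 and MC1568, on the same flow cell as 2 of the DMSO libraries, gave -1.51 and -0.58 against those alone, both past the threshold. For the compounds of C5JW5ACXX, flow cell and treatment cannot be told apart in the comparison with DMSO.

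**Figure D2:**
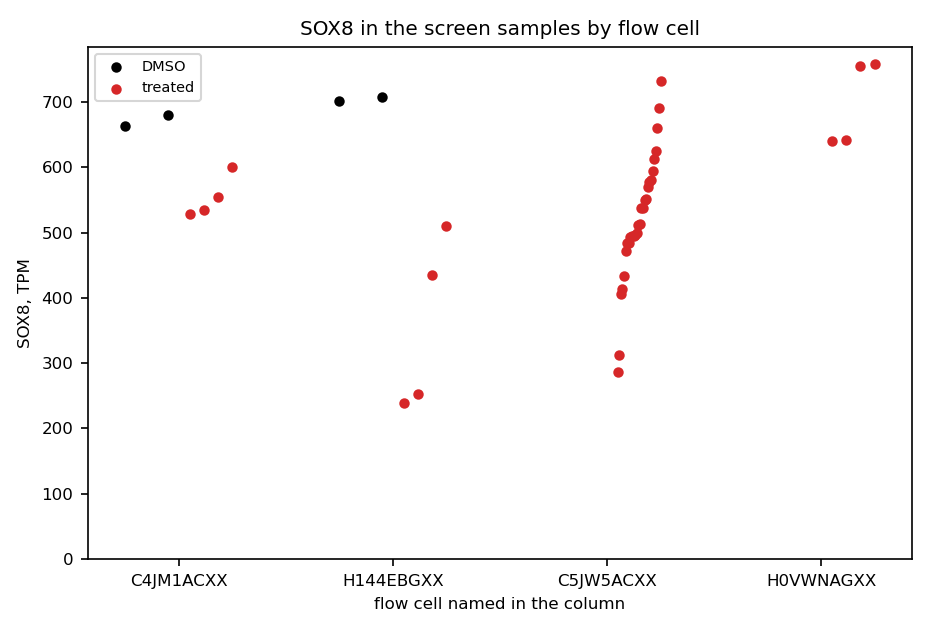
SOX8 TPM in the 44 screen samples by the flow cell in the column names, each point 1 sample, spread sideways in order of value. DMSO libraries (black) lie between 664 and 707 TPM, and the treated samples of C5JW5ACXX (28 samples, no DMSO) have a median of 512 TPM.

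SOX12, a SoxC member, fell further than SOX8 under LAQ824 and WT161. It was at 12.8 and 12.2 TPM under LAQ824 and at 19.9 and 43.99 TPM under WT161, all under the 69.2 TPM of the lowest control. The log2 fold changes were -2.47 ± 0.20 (adjusted p = 6.90e-09) and -1.29 (adjusted p = 5.63e-05). Under Bromosporin SOX12 was at 29.8 and 46.3 TPM (-0.97, adjusted p = 0.000951). Without the high dose the SOX12 value was -0.73 under WT161 (adjusted p = 0.00426) and -0.66 under Bromosporin, where the call was lost (adjusted p = 0.0843). With the compound's own samples and DMSO alone in the fit, neither passed (adjusted p = 0.159 and 0.186). Both SOX12 calls on C5JW5ACXX stayed when the remaining compounds of that flow cell were the reference (WT161 -1.06, adjusted p = 4.78e-06; Bromosporin -0.72, adjusted p = 0.000369). Cpd50 stood at the other end, with 104.5 and 94.8 TPM, above all controls; its difference of 0.43 did not pass (adjusted p = 0.296).

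SOX13, of the SoxD group, was called lower under LAQ824 alone, although its estimate was negative under 10 of the 20 compounds. Under LAQ824 it was at 12.1 and 13.5 TPM, less than the lowest control at 27.1 TPM. The log2 fold change was -1.09 ± 0.19 (adjusted p = 4.59e-05). Under WT161 the high dose gave 17.1 TPM and the low dose 29.4 TPM, the latter above the controls. Under Bromosporin SOX13 was at 47.0 and 32.3 TPM, both above the controls, and the difference of 0.45 had an adjusted p of 0.0703. That value passed in 5 alternatives, among them median-ratio scaling (0.56, adjusted p = 0.0275).

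SOX11 rose under Bromosporin. This SoxC gene was at 117 TPM at 10 µM and 59.6 TPM at 1 µM, against 31.6 to 33.5 TPM in DMSO, a log2 fold change of 1.35 ± 0.31 (adjusted p = 0.00179), while 12.4% of all genes rose under this compound. The call was lost without the high dose (0.87, adjusted p = 0.134) and with its own samples and DMSO alone (adjusted p = 0.192). SOX9 rose there too, at 16.9 and 10.3 TPM (0.57, adjusted p = 0.0478), although this call was lost under 6 alternatives, with a pseudocount of 0.1 (adjusted p = 0.0523) and the low dose alone (0.24, adjusted p = 0.637) among them. SGCCBP30, the other bromodomain compound of the acetylation axis, gave 50.4 TPM of SOX11 at the high dose and 26.6 TPM at the low dose. These values lie on either side of the controls.

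UNC0638 separated its doses. SOX4, a SoxC gene, was at 151 TPM at 10 µM and 51.3 TPM at 1 µM, and SOX11 at 89.6 and 32.5 TPM. For both genes the low-dose sample lay within the control range and the high-dose sample stood well above it. The SOX4 call (0.80 ± 0.25, adjusted p = 0.0365, where 2.37% of genes rose) therefore rests on 1 sample: with the low dose alone the value was 0.03. SOX11 did not pass with both doses (0.73, adjusted p = 0.116) and passed with the high dose alone (1.45, adjusted p = 0.000232).

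SOX9 was lowest under trametinib, the MEK inhibitor, at 4.16 and 4.89 TPM, both under the lowest control at 7.87 TPM. The log2 fold change of -0.80 ± 0.22 missed the threshold (adjusted p = 0.0520). It passed in 9 alternatives, including the other compounds of the flow cell as reference (-0.84, adjusted p = 0.00129). SOX4 was at 71.1 and 73.0 TPM under trametinib, above the controls, with a difference of 0.52 that did not pass (adjusted p = 0.397).

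**Figure D3:**
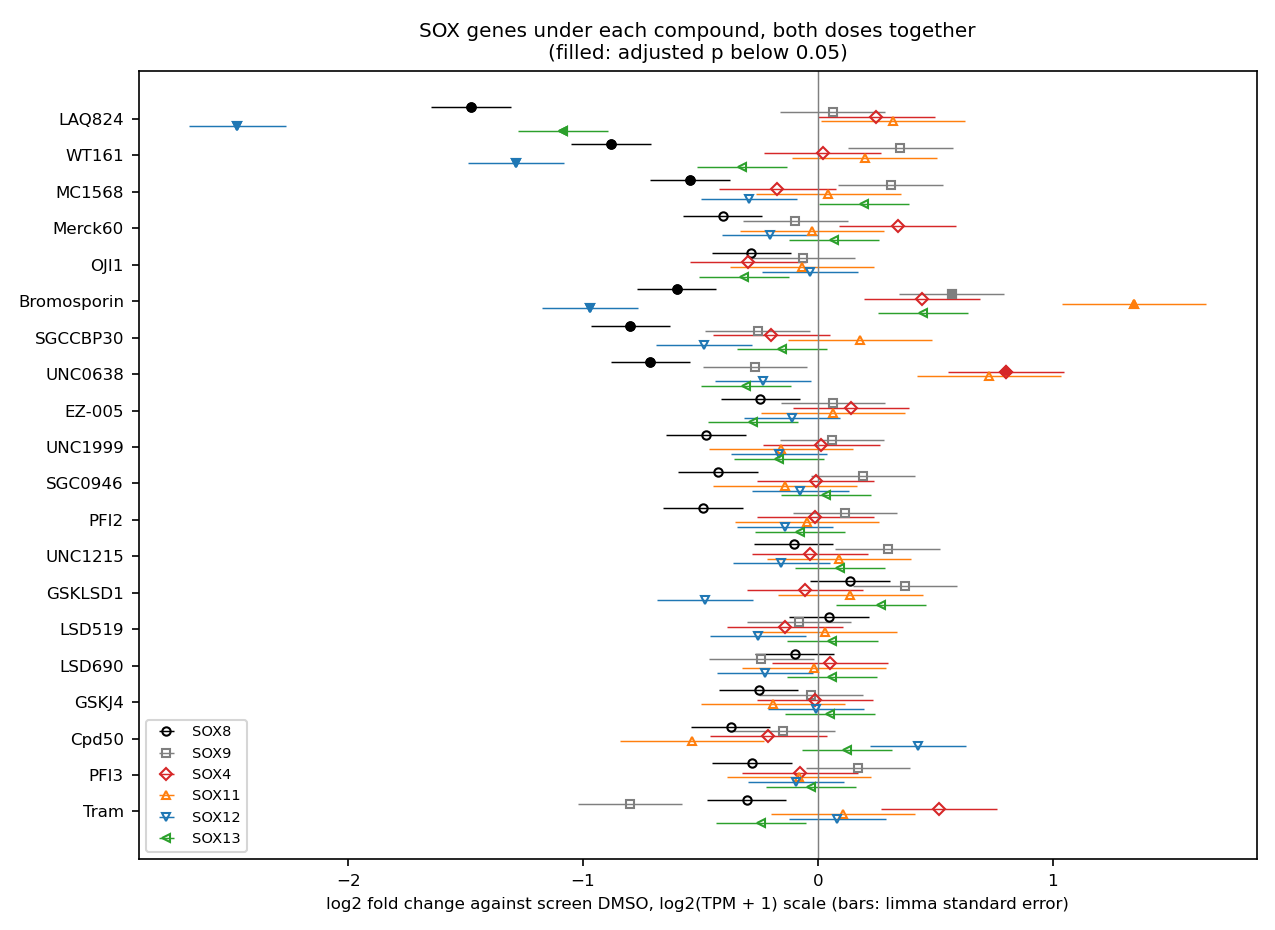
Log2 fold change against screen DMSO (log2(TPM + 1) scale, bars are limma standard errors) of 6 SOX genes under 20 compounds, filled where the adjusted p is below 0.05. Filled points to the left are SOX8, SOX12 and SOX13, from -0.54 (SOX8, MC1568) to -2.47 (SOX12, LAQ824), and those to the right are SOX11, SOX9 and SOX4.

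Whether a gene's change differed from that of SOX8 in the same libraries was tested by subtracting SOX8 in each sample before the fit. The share of all genes that differ is high where SOX8 fell, and the error of SOX8 is shared by all members. Under LAQ824, SOX4, SOX9 and SOX11 were higher relative to SOX8 (differences of 1.73, 1.54 and 1.80), as were 85.9% of genes. SOX13 did not pass. SOX12 fell further than SOX8 by 0.99 (adjusted p = 1.55e-06), which held for 2.12% of genes. Under WT161 SOX12 was again lower than SOX8 (-0.40, adjusted p = 0.0221, where 1.53% of genes were lower), and SOX4, SOX9, SOX11 and SOX13 were higher, as were 67.2% of genes. Under Bromosporin those same 4 genes were higher relative to SOX8 (32.6% of genes), SOX11 by 1.95. Under UNC0638 SOX4, SOX11 and SOX12 were higher (40.3%), under SGCCBP30 SOX11 and SOX13 (67.4%), under MC1568 SOX9 and SOX13 (61.9%), and under Cpd50 SOX12 by 0.80 (5.89%).

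Across the 40 treated samples the changes of SOX8 and SOX12 had a Pearson r of 0.74, those of SOX8 and SOX13 an r of 0.62, and those of SOX4 and SOX11 an r of 0.64. SOX8 and SOX11 had an r of -0.36. These are descriptions over samples that share DMSO references and flow cells. The genes most like SOX8 by this measure were PDGFA (r = 0.91), WSCD1, ANK1, FAM120A and TRIM72 (0.89). Those most like SOX12 were ZNF362 (0.96), SYT17 and KCTD15. For SOX13 they were E2F7 (0.88), SPIN4 and FAM20C, for SOX11 ZBTB11 (0.88), PPM1D and PELI1, for SOX4 GADD45A (0.82), BTG2 and SGK1, and for SOX9 SLC4A11 (0.77), FAM101B and CHST8.

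**Figure D4:**
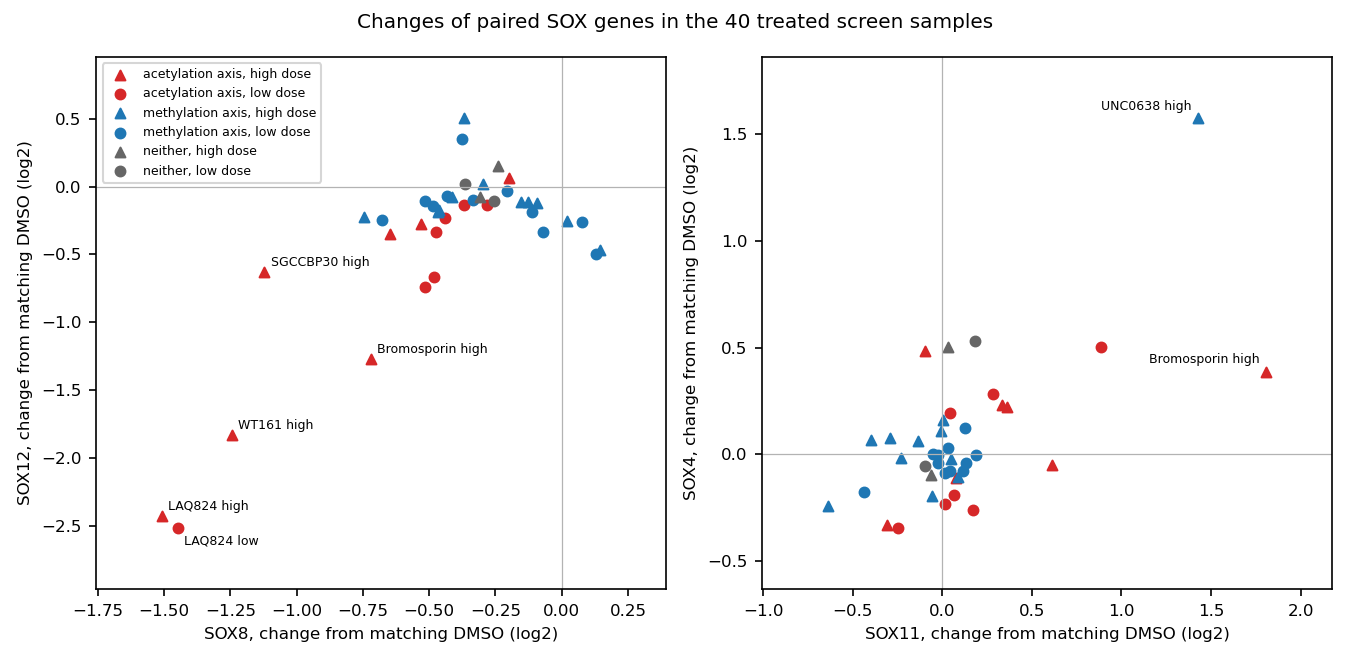
Change from matching DMSO (log2) of SOX12 against SOX8 and of SOX4 against SOX11 in the 40 treated screen samples, 1 point per sample, coloured by axis. LAQ824 and the high dose of WT161 lie lowest for both SOX8 and SOX12, while the high dose of UNC0638 stands alone at the top for SOX4.

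By axis, SOX8 averaged -0.71 ± 0.40 (SD over 7 compounds) under acetylation-axis and -0.27 ± 0.25 (11 compounds) under methylation-axis compounds. SOX12 averaged -0.82 ± 0.85 and -0.13 ± 0.22. PFI3, left out of both groups, gave -0.28 for SOX8 and -0.09 for SOX12. The differences between axes, -0.44 ± 0.14 for SOX8 (SE; adjusted p = 0.0684) and -0.69 ± 0.24 for SOX12 (adjusted p = 0.0804), did not pass, and 0% of all genes did in limma, although 5018 had an unadjusted p under 0.05. With the high dose only, SOX8 passed (-0.58, adjusted p = 0.0382). SOX4, SOX9, SOX11 and SOX13 differed by -0.15 to 0.29. Without MC1568, Merck60 or OJI1 in turn, both passed in limma: SOX8 at -0.47, -0.49 and -0.51 (adjusted p = 0.0462, 0.0350 and 0.0250) and SOX12 at -0.78, -0.79 and -0.82 (adjusted p = 0.0474, 0.0409 and 0.0299). Each of these compounds changed SOX8 (-0.54, -0.41 and -0.28) and SOX12 (-0.29, -0.21 and -0.03) by less than the axis mean. Leaving it out therefore widens the difference. The share of all genes that passed in these fits, or with the high dose only, is not given here. Without LAQ824 the differences were smaller, -0.31 for SOX8 and -0.42 for SOX12 (both adjusted p = 0.173). Within flow cell C5JW5ACXX they were -0.25 (adjusted p = 0.356) and -0.42 (adjusted p = 0.270).

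The 10-fold step in dose moved no member past the threshold on either axis, where 0% of genes passed. SOX8 was 0.30 ± 0.12 lower at the high dose over acetylation-axis compounds (estimate -0.30, adjusted p = 0.384) and almost level over methylation-axis compounds (-0.02 ± 0.03). Between DMSO at 0.2% and 0.1%, where 0% of genes passed, the 6 genes differed by -0.03 to 0.04 on the log2 scale.

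The genes listed here beside SOX8 as core regulatory factors were followed under the same compounds. Under LAQ824 all 5 others fell, with log2 fold changes of -4.37 for FOXF1, -3.50 for MYOG, -3.12 for MYOD1, -2.13 for MYCN and -1.59 for PAX3. Under WT161 4 of 5 were called lower and PAX3 was not (-0.63), and under Bromosporin MYCN, MYOD1 and MYOG were. Under SGCCBP30 and MC1568 none of the 5 passed, although several estimates were as large as that of SOX8. Under SGCCBP30 these were -1.21 for MYCN, -1.02 for MYOG, -0.89 for MYOD1, -0.81 for FOXF1 and -0.56 for PAX3, with standard errors of 0.31 to 0.49 against 0.17 for SOX8. Under MC1568 they ran from -0.11 for MYCN to -0.77 for MYOG. Under UNC0638 MYOD1 was called (-1.18), and FOXF1 was at 0.19. Whether these factors differed from SOX8 was not tested.

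Under LAQ824 28.4% of all genes rose and 24.6% fell, which is the background for the lists that follow. Of 12 further SOX genes, 6 passed the filter. Under LAQ824, SOX15 (-1.59) and SOX6 (-1.08), a SoxD partner of SOX9 in cartilage, fell and SOX30 rose (0.71). Among genes known to respond to SoxE factors, 3 of 7 tested cartilage genes were called higher under LAQ824 and none lower. These were COL9A1 (1.06), COMP (0.90) and COL9A3 (0.58), each from levels under 1 TPM in DMSO. They passed the filter only through samples other than the screen controls, as did SOX30 and CDH3, so the count of rises depends on the filter. For COL9A1, SOX30 and CDH3, both LAQ824 samples reached 1 TPM, which alone meets the filter. Of 11 cartilage genes listed, 2 reached 1 TPM in the screen controls. A fall from lower levels could hardly be called, so rises and falls here cannot be weighed against the shares over all genes. COL2A1, at 85.6 to 92.8 TPM in the controls, was not called. Of 5 tested neural crest and glia genes, ERBB3, a neuregulin receptor, fell from 83.8 to 88.7 TPM in DMSO to 23.6 and 24.1 TPM (-1.82, adjusted p = 1.98e-06) and MITF rose (1.19). Of 9 tested SoxC target genes 4 fell, led by TEAD2 (-2.24), MEX3A (-1.86) and DCX (-0.66), and 2 rose, the neuronal tubulin TUBB3 (2.48) and FSCN1 (0.61). The median log2 fold changes were 0.30, -0.06 and -0.40 for the 3 target lists against 0.06 over all genes. The first median takes in the cartilage genes that are low in DMSO. Of the 12 muscle and rhabdomyosarcoma markers 10 fell, led by TFAP2B (-4.10), MYOG and PIPOX (-3.42), and CDH3 rose (1.34). Of 5 fibroblast genes DCN fell (-0.61) and COL1A1 rose (1.36), and of the immune markers CD14, the 1 gene tested, rose (2.14).

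The RH4-titled samples asked how the family responds to other HDAC inhibitors, with 1 sample per condition and time, so single values carry no p and intervals cover counting error only. With N1302, SOX8 was at 160 TPM against 305 TPM in DMSO, a log2 change of -0.93 (95% interval -0.98 to -0.87). SOX12 was at 7.94 against 18.7 TPM (-1.14, -1.34 to -0.94) and SOX13 at 4.50 against 7.08 TPM (-0.55). SOX4 (36.2 against 39.0 TPM), SOX9 (7.59 against 7.44) and SOX11 (22.3 against 21.1) changed by -0.11 to 0.08. SOX12 was thus the 1 member past a log2 change of 1, beside 19.3% of genes down and 11.6% up. Median-ratio scaling shifted this comparison by 0.33: SOX8 then changed by -0.60 and SOX12 by -0.84, and SOX4 turned from -0.11 to 0.22.

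Under entinostat SOX8 lay lower at each later time. At 1 h no member passed a log2 change of 1 (0.581% of genes were down and 0.66% up), and SOX8 was at 541 TPM against 496 in DMSO. At 6 h SOX8 was at 269 against 499 TPM and at 24 h at 106 against 492 TPM, log2 changes of 0.13, -0.89 and -2.20 at the 3 times, while the DMSO values stayed between 492 and 499 TPM. SOX12 went from -0.05 to -0.63 and -1.39, ending at 19.9 against 53.8 TPM.

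SOX4 went the other way. It was at 54.2 TPM against 43.8 at 1 h, 105 against 46.0 at 6 h and 184 against 49.2 at 24 h, log2 changes of 0.30, 1.18 and 1.88, and its 24 h level exceeded that of SOX8. SOX11 was at 48.7 against 28.0 TPM at 24 h (0.78). SOX13 was above DMSO at 6 h (21.3 against 16.1 TPM) and below it at 24 h (12.1 against 20.1 TPM), and SOX9 stayed within its counting interval of DMSO at every time. SOX4 was past a log2 change of 1 at 6 h, beside 5.13% of genes up and 0.947% down, and at 24 h SOX4 up and SOX8 and SOX12 down were, beside 16.4% of genes up and 6.06% down.

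A fit over the 3 entinostat and 3 DMSO samples with time as a block (limma, 2 residual degrees of freedom, chosen after seeing the data) called no member and 0% of all genes, with 440 genes at an unadjusted p under 0.05. The mean change over the times was 1.12 ± 0.34 (SE) for SOX4, -0.99 ± 0.50 for SOX8 and -0.69 ± 0.30 for SOX12 (each adjusted p = 0.502). Its error takes in how far the change differs between times.

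The 2 RH4-titled DMSO samples at 6 h differ among themselves. SOX12 was at 18.7 TPM in the N1302 control and 48.1 TPM in the entinostat control, and SOX13 at 7.08 and 16.1 TPM. With the mean of both as reference, the 6 h change of SOX12 was -1.80 for N1302 and 0.03 for entinostat, and that of SOX8 was -1.28 and -0.54. In the screen, SOX4 under LAQ824 was at 58.3 and 61.3 TPM (0.25 against screen DMSO, adjusted p = 0.417).

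**Figure D5:**
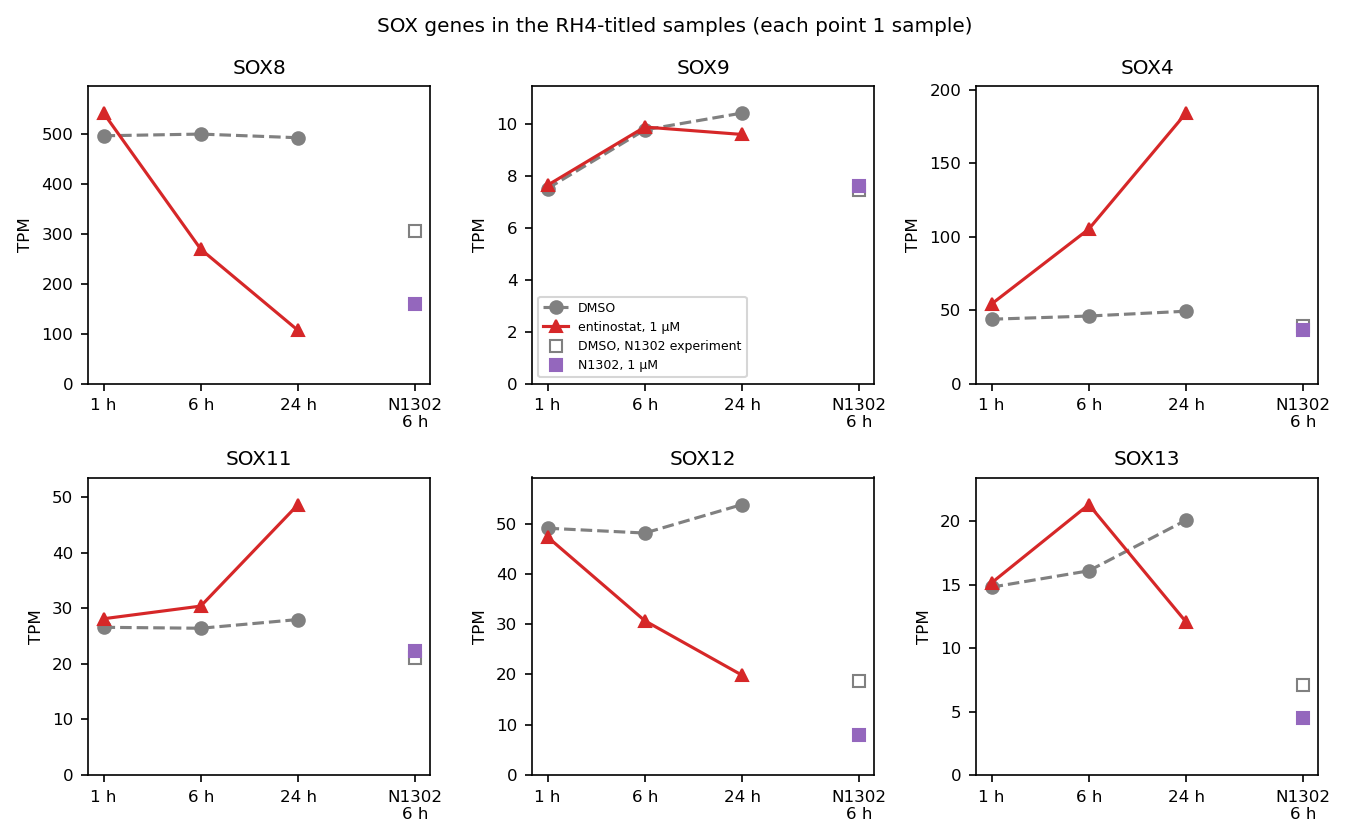
TPM (linear axes from 0) of the 6 SOX genes under entinostat or DMSO at 1, 6 and 24 h, and under N1302 or DMSO at 6 h, each point 1 sample. SOX8 ends at 106 TPM and SOX4 at 184 TPM after 24 h of entinostat, with DMSO at 492 and 49.2 TPM.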

How the data were processed

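RNA was sequenced from 52 samples of fusion-positive rhabdomyosarcoma cells, labelled RH4 and, for the screen, titled RH41. Per the study's methods, the authors used STAR to place poly-A reads on hg19, then RSEM with a UCSC reference. The authors' processing notes also list edgeR, with no role given. The deposited values are TPM per gene, one table per sample. Counts were not used in the main tests: TPM values stepped in whole reads in 23643 of 23645 genes (tolerance 0.001), which gave the depths. Which counting step made the deposited values is not known.

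Samples were grouped by the labels. Values were analysed as log2(TPM + 1), so fold changes of low genes are understated, for the 16359 genes that reached 1 TPM in no fewer than 2 samples. limma (version 3.58.1, R 4.3.3; trend, two-sided, Benjamini-Hochberg over all genes tested) was fitted on all 44 screen samples, with the 2 DMSO libraries of a concentration averaged. Both doses of a compound serve as its samples, and the error of each gene is shared over all compounds of the screen. The p-values therefore measure spread between doses pooled over the screen, not that of the compound named. Nothing says that the doses are separate cultures. No p was computed for single samples. Entinostat was also fitted over its 3 times with time as a block. On simulated data with 16359 genes for LAQ824, 199 of 200 genes changed by 2 on the log2 scale were called, with 11 false calls. Python 3.11.15 did the rest.

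The members, the lists (other SOX genes, core regulatory factors, targets of SoxE and SoxC factors, muscle, fibroblast and immune markers) and the tests were chosen with earlier results of these data known. Named beside the members were the 5 core regulatory factors, up to 3 genes per list and direction with the largest called LAQ824 changes, and the 5 (SOX8) or 3 genes whose change correlated most with each member. Some genes of the lists are not reported here by name. Genes named for being at 0 or for low markers were picked after their values were seen. Alternatives covered pseudocount, scaling, filters, DMSO handling, doses, flow cells and left-out samples. DMSO libraries with the same replicate number shared a flow cell by the column names, and a fit with that number as a block was an alternative.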

Additional observations from a re-analysis of the deposited data

Results flagged for a closer look

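SOX11 under Bromosporin stood apart from the other acetylation-axis compounds: its log2 fold change of 1.35 was farther from its nearest neighbour than the 95% limit for 7 values allows. Of 12 such checks (the highest and the lowest compound for 6 genes) this was the 1 that passed, and chance alone passes about 1 group in 20.

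Under entinostat, 3 genes had opposite signs at 1 h and 24 h. SOX8 was at 0.13 and -2.20, SOX9 at 0.02 and -0.11, and SOX13 at 0.03 and -0.69 on the log2 scale. The differences between times were not tested, with 1 sample each, and the 1 h values of SOX9 and SOX13 and the 24 h value of SOX9 were within counting error of 0.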

How the results depend on the processing

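The calls of SOX8, SOX12 and SOX13 under LAQ824 stayed under all 15 alternatives run for each. Of the 13 calls over 20 compounds, 12 to 13 remained when a DMSO library was left out. Without the high dose 5 remained, all of LAQ824 or WT161, and without the low dose 16 were called. With limma and voom weights on whole reads, chosen after seeing the data, 23 were called, including all 13. Fits on a compound's own samples and DMSO, where the error is not shared over the screen, made 15 calls but shared 4 with the 13. Those shared were the LAQ824 calls and SOX8 under MC1568. Set against the remaining compounds of C5JW5ACXX, 11 calls were made for its 14 compounds and 7 of 9 were shared. Leaving out 1 dose moved the count of members differing from SOX8 from 21 to between 6 (low dose alone) and 24. The axis comparison called 0 members, 1 with the high dose only, and between 0 and 2 with a compound left out. The share of all genes called in each of these alternatives is not given here. The counts therefore do not show whether members gained or lost calls more often than other genes. The entinostat fit with time as a block called 0 members in limma in each alternative run, with 86 to 2119 genes at an unadjusted p under 0.05. No direction of a called change reversed in these alternatives. The DMSO concentrations gave 0 genes with or without the replicate block, and 1548 genes had an unadjusted p under 0.05 without the replicate block and 1768 with it. Same-numbered DMSO libraries share a flow cell, and their deviations from the group means had a correlation of 0.07. Without a filter on low values SOX10 was called higher under LAQ824 (0.11, adjusted p = 0.0195), on 3 and 2 reads. The cause of these shifts was not tested. There was 1 sample per dose, and 1 per time under entinostat and N1302, which limits precision whatever the depth.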
